A study of Homo sapiens with 12 samples.

Results

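The BCL2 family is described here through 10 genes: the pro-survival members BCL2, BCL2L1, BCL2A1 and MCL1, the BH3-only members BCL2L11, BBC3, PMAIP1 and BMF, and the effectors BAX and BAK1. Each was taken by its gene symbol from the 63129 gene IDs of the deposited expression table. Every one of the 10 symbols had 1 row there, so that no choice between rows was needed. RNA was sequenced in 12 libraries from KARPAS-422, Pfeiffer and RL, established human lines of diffuse large B cell lymphoma of the germinal centre B cell type. All of them carry an activating change in the SET domain of EZH2, the histone methyltransferase subunit of PRC2, so that no group here has EZH2 without such a change. KARPAS-422 cells were given the EZH2 inhibitor CPI-169 at 1.5 µM (3 libraries) or 0.1% DMSO (3 libraries). Pfeiffer cells were given the EZH2 inhibitor GSK343 at 1.5 µM (2 libraries) or 0.1% DMSO (2 libraries), and RL cells were given 0.1% DMSO without an inhibitor (2 libraries). All cells were harvested after 4 days. By the labels, KARPAS-422 and Pfeiffer respond to EZH2 inhibition in their phenotype and RL does not. Each compound was used in 1 line, so compound and line cannot be told apart, and each line stands for itself rather than for a class of tumours.

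Proteins of the BCL2 family decide whether the outer membrane of the mitochondrion stays closed. The pro-survival proteins hold the effectors BAX and BAK1 in check, the BH3-only proteins bind and neutralise the pro-survival proteins or engage the effectors directly, and freed effectors form pores through which cytochrome c leaves to start the caspase cascade. In germinal centre B cells BCL2 is normally low and survival depends largely on MCL1. Many lymphomas of this origin express BCL2 through a translocation to the immunoglobulin heavy-chain locus.

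Values are FPKM, fragments per unit of transcript length and of mapped fragments, which makes the levels of different genes comparable per length. Differences are log2 fold changes of FPKM + 1 from limma, fitted over the 18731 genes that reached 1 FPKM in 2 or more libraries, and a gene is called where its Benjamini-Hochberg adjusted p is under 0.05. All 10 members passed that filter. BCL2A1 did so through its Pfeiffer and RL libraries alone, since it stayed below 1 FPKM in every KARPAS-422 library. FPKM are not counts, and the absolute depth behind them is unknown. Relative depth within a line ran between 0.646 and 1.34 of the first DMSO library, and FPKM sums ran between 369524 and 628281. Libraries of the same group correlated across genes at r = 0.993 to 0.997 except for the GSK343 pair, at r = 0.97. The fold changes of members that rest on that pair are given below with each of its libraries left out. Such a fit leaves 1 GSK343 library, and the spread of the pair no longer enters it. A call in such a fit is therefore no check of a result, and only the sizes are compared. All 5 B cell markers were present in every group. Of 4 germinal centre markers, SERPINA9 was near 0 in Pfeiffer (means of 0.137 FPKM with GSK343 and 0.122 FPKM with DMSO). BCL6, MME and MYBL1 were also lower there, at means of 107, 8.91 and 5.25 FPKM with DMSO. They averaged 202, 37.6 and 73.8 FPKM in KARPAS-422 with DMSO, and 278, 68.7 and 42.2 FPKM in RL. EZH2 itself had 40.4 to 41.5 FPKM with CPI-169 and 44.4 to 49.1 FPKM with DMSO in KARPAS-422 and was not called (limma, Benjamini-Hochberg adjusted p = 0.175). In Pfeiffer EZH2 had 13.8 and 20.9 FPKM with GSK343, against 31.6 and 30.8 FPKM with DMSO, and fell (log2 fold change -0.84, limma, Benjamini-Hochberg adjusted p = 0.00169). The compounds act on the enzyme, so the EZH2 transcript does not check the treatment.

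The regions upstream of 9 of the 10 genes were read from RefSeq (build GRCh38.p14) as the 250 bases before each annotated start, 11 windows in all. MCL1 had no entry among the promoters used and was not searched. These were searched on both strands for the core letters of factors known to act on this family: GTAAACA for FOXO factors, GGG and TTTCC parted by any 2 bases for NF-κB, GAAA and GAAA parted by any 2 bases for interferon regulatory factors, TGACGTCA for CREB and CACGTG for E-box binding factors. A match was held by 4 of the 9 genes, and the share of all promoter windows with a match is given below for each motif. The 3 shown here are BCL2L11, a textbook FOXO target, BCL2A1, whose level differed most between the lines, and BAX, with the densest matches. Each is written 5′ to 3′ in the direction of the gene, and capitals mark the matched letters.
BCL2L11 (chr2:111120664-111120913, plus strand): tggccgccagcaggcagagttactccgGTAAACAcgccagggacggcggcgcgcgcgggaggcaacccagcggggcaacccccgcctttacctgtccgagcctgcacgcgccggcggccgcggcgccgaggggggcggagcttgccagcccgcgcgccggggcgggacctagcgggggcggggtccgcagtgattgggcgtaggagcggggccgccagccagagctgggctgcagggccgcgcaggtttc
BCL2A1 (chr15:79971197-79971446, minus strand): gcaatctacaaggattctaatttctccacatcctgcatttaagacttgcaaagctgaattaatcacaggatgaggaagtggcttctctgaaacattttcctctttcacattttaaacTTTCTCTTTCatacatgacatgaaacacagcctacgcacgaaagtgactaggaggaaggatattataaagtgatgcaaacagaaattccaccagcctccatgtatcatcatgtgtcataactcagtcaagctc
BAX (chr19:48954625-48954874, plus strand): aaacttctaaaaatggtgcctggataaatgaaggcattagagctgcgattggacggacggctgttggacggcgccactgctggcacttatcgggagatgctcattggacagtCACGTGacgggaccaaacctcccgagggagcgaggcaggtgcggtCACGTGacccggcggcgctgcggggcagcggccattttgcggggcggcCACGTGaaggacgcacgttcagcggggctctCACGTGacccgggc
The BCL2L11 window held the FOXO letters once, starting 223 bases before the start site, and 2.98% of the 35116 RefSeq promoter windows of the same length hold them. The BCL2A1 window held the interferon-type letters on the opposite strand, 133 bases before the start site, and 3.02% of windows do so. The BAX window held the E-box letters 4 times, at 138, 93, 45 and 14 bases before the start site, and BBC3 held them once, at 232 bases, against 6.34% of windows with at least 1 match. The CREB letters (1.65% of windows) and the NF-κB letters (1.73% of windows) were in none of the 11 windows. A match describes the letters of the window and is not a measured binding site.

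The 3 lines differed in which pro-survival gene led. In RL it was BCL2, the founding member of the family (hg19 18:60790578-60987361), with 182 and 195 FPKM. In KARPAS-422 with DMSO it was MCL1, a short-lived pro-survival protein (hg19 1:150547031-150552066), with 184, 201 and 198 FPKM. In Pfeiffer with DMSO it was BCL2A1, a pro-survival member known as an NF-κB target (hg19 15:80253230-80263788), with 365 and 317 FPKM. As a mean share of the summed FPKM of the 4 pro-survival genes, BCL2 held 60.0% in RL, MCL1 held 62.6% in KARPAS-422 with DMSO and BCL2A1 held 60.9% in Pfeiffer with DMSO. The sums themselves were 314 FPKM in RL, 311 FPKM in KARPAS-422 with DMSO and 559 FPKM in Pfeiffer with DMSO. They were not scaled to the FPKM summed over all genes, which also differed by line. That total was 455853 and 460907 in RL and 369524 to 415333 in KARPAS-422 with DMSO. In Pfeiffer with DMSO it was 628281 and 610420. BCL2L1, which encodes the pro-survival protein BCL-XL (hg19 20:30252254-30311792), was never the leading gene, at shares of 7.56% in RL, 8.50% in KARPAS-422 with DMSO and 11.7% in Pfeiffer with DMSO.

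**Figure D1:**
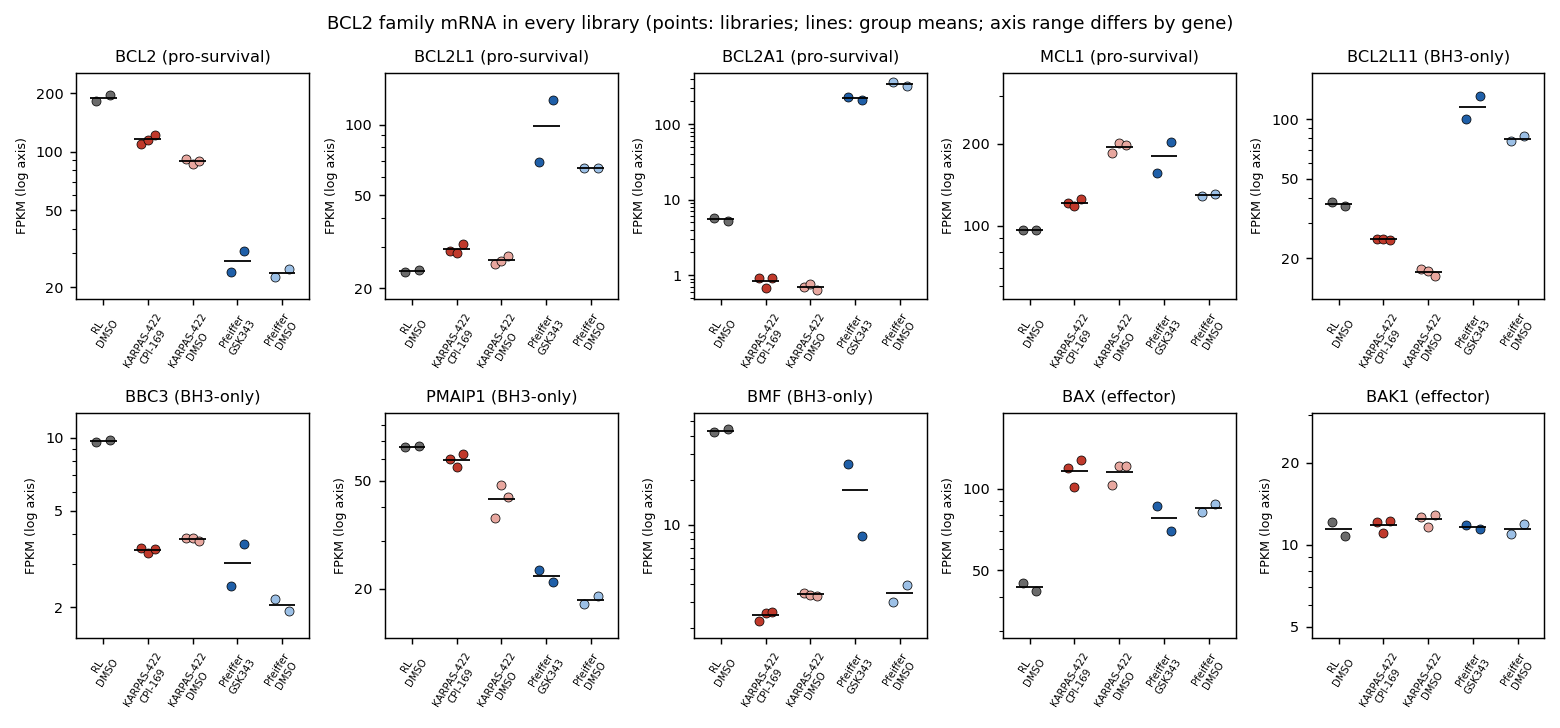
FPKM of the 10 BCL2 family genes in all 12 libraries, 1 panel a gene and 1 point a library, with a bar at each group mean. BCL2A1 reached 365 FPKM in Pfeiffer and stayed under 1 FPKM in KARPAS-422, while all BAK1 points lay between 10.8 and 12.9 FPKM.

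Among the BH3-only genes the leading member also differed by line. PMAIP1 encodes NOXA, which binds MCL1 and BCL2A1 preferentially (hg19 18:57567179-57571538), and it held 42.5% of the summed BH3-only FPKM in RL and 63.7% in KARPAS-422 with DMSO. BCL2L11 encodes BIM, which binds every pro-survival member (hg19 2:111876954-111926024), and it held 23.9% in RL, 25.4% in KARPAS-422 with DMSO and 77.1% in Pfeiffer with DMSO. BMF, a BH3-only protein linked to the cytoskeleton (hg19 15:40380090-40401093), held 27.5% in RL. With DMSO it held 5.10% in KARPAS-422 and 3.37% in Pfeiffer. BBC3 encodes PUMA, another binder of every pro-survival member (hg19 19:47724080-47736023), and it ranked between 8 and 10 among the 10 genes in every group. Of the effectors, BAX (hg19 19:49458071-49465055) always lay above BAK1 (hg19 6:33540328-33548019). Within each group the order of the 10 genes was clear for most neighbours. The libraries of neighbours overlapped for BCL2L11 and BAX in Pfeiffer with DMSO, for BAX and BMF in RL, for MCL1, BAX and BCL2 in KARPAS-422 with CPI-169, and in 4 steps of the order in Pfeiffer with GSK343.

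**Figure D2:**
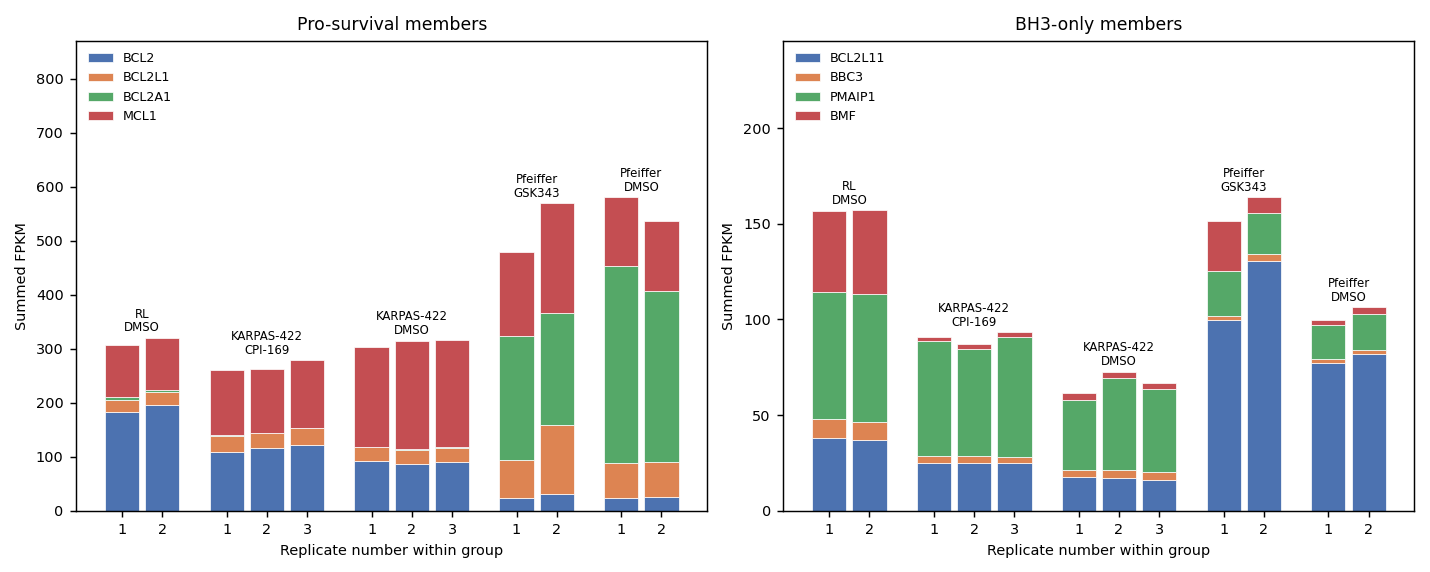
FPKM summed in each library and stacked by gene, for the 4 pro-survival genes (left panel) and the 4 BH3-only genes (right panel), 1 bar a library. The largest pro-survival block is BCL2 in RL (mean share 60.0%), MCL1 in KARPAS-422 with DMSO (62.6%) and BCL2A1 in Pfeiffer with DMSO (60.9%).

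With CPI-169 in KARPAS-422, BCL2, BCL2L11 and PMAIP1 rose and MCL1 fell. These were 4 of the 10 members called, and over all genes tested 54.2% were called. By direction, 3 members rose beside 26.9% of all genes and 1 fell beside 27.3%, so the counts are not a result about the family. The median log2 fold change was 0.06 over the members and 0.01 over all genes. MCL1 had 121, 118 and 126 FPKM with CPI-169, against 184, 201 and 198 FPKM with DMSO. Every CPI-169 library lay below every DMSO library. Its log2 fold change was -0.67 (SE 0.096, limma, Benjamini-Hochberg adjusted p = 1.52e-04). BCL2 had 109, 115 and 122 FPKM with CPI-169, against 91.8, 86.5 and 89.1 FPKM with DMSO. All CPI-169 libraries were the higher ones, and the groups did not overlap. Its log2 fold change was 0.37 (SE 0.094, limma, Benjamini-Hochberg adjusted p = 0.00650). The opposite moves brought the 2 genes to nearly the same level: the ratio of BCL2 to MCL1 averaged 0.951 with CPI-169 (range 0.902 to 0.979) and 0.460 with DMSO (range 0.431 to 0.498). The pro-survival sum averaged 267 FPKM with CPI-169 and 311 FPKM with DMSO, without overlap.

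BCL2L11 had 25.0, 25.0 and 24.7 FPKM with CPI-169, against 17.5, 17.2 and 16.2 FPKM with DMSO. The groups were well apart and the CPI-169 libraries lay close together. The fold change was 0.53 on the log2 scale (SE 0.091, limma, Benjamini-Hochberg adjusted p = 5.87e-04). PMAIP1 had 60.0, 56.3 and 62.5 FPKM with CPI-169, against 36.6, 48.3 and 43.7 FPKM with DMSO. Its DMSO libraries were the more spread, yet none reached the lowest CPI-169 library. The log2 fold change was 0.47 (SE 0.097, limma, Benjamini-Hochberg adjusted p = 0.00176). Set against MCL1, which both proteins can bind, the ratio of BCL2L11 to MCL1 averaged 0.205 with CPI-169 and 0.0875 with DMSO. The ratio of PMAIP1 to MCL1 averaged 0.491 with CPI-169 and 0.220 with DMSO, and for both ratios the groups did not overlap. The 4 calls held under all 21 alternative settings tried.

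The other 6 members were not called with CPI-169. BCL2L1 had 28.9, 28.5 and 31.1 FPKM with CPI-169, against 25.4, 26.2 and 27.6 FPKM with DMSO. BMF had 2.24, 2.55 and 2.57 FPKM with CPI-169, against 3.49, 3.39 and 3.31 FPKM with DMSO. For both the groups did not overlap. Their standard errors come from all 5 groups, of which the GSK343 pair was the most spread for these genes. With the 6 KARPAS-422 libraries fitted alone, BCL2L1 passed at a log2 fold change of 0.15 (limma, Benjamini-Hochberg adjusted p = 0.0418) and BMF at -0.35 (limma, Benjamini-Hochberg adjusted p = 0.0054). BBC3 averaged 3.45 ± 0.0828 FPKM with CPI-169 and 3.82 ± 0.0740 FPKM with DMSO (SD, n = 3 each), a log2 fold change of -0.12 that was called only after quantile normalization (-0.28, limma, Benjamini-Hochberg adjusted p = 0.0327). BAX averaged 116 ± 13.1 FPKM with CPI-169 and 115 ± 10.4 FPKM with DMSO. BAK1 averaged 11.8 ± 0.680 FPKM with CPI-169 and 12.4 ± 0.639 FPKM with DMSO. For these effectors, and for BCL2A1 at 0.681 to 0.928 FPKM with CPI-169 and 0.629 to 0.767 FPKM with DMSO, the libraries of the groups overlapped. The summed level of the 4 germinal centre markers was 469.5 to 478 FPKM with CPI-169 and 329.8 to 347 FPKM with DMSO, mostly through SERPINA9. The summed level of 5 T and NK cell markers was 53.1 to 59.9 FPKM with CPI-169 and 35.5 to 37.1 FPKM with DMSO, nearly all of it CD3G, while CD2 was listed at 0. The part of these shifts in the results was not tested.

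With GSK343 in Pfeiffer, BCL2L11, BMF, MCL1 and BBC3 rose and BCL2A1 fell. These were 5 of 10 members called, beside 29.5% of all genes tested. By direction, 4 members rose beside 12% of all genes and 1 fell beside 17.5% of all genes. The direction of the calls over all genes turned on the scaling: 2254 were higher and 3281 lower as deposited, 2652 and 2548 after quantile normalization, and 3763 and 2065 after median scaling, which moved the median of all genes by 0.11 on the log2 scale. The median log2 fold change was 0.34 over the members and -0.03 over all genes. With the 4 Pfeiffer libraries fitted alone, none of the 5 calls remained, and limma called 0 of 18731 genes there, with 4634 at an unadjusted p under 0.05. The 5 calls use the spread shared with the other lines.

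BCL2A1, the leading pro-survival gene of this line, had 231 and 209 FPKM with GSK343, against 365 and 317 FPKM with DMSO. Both GSK343 libraries lay well below both DMSO libraries. On the log2 scale the fold change was -0.63 (SE 0.11, limma, Benjamini-Hochberg adjusted p = 0.00168). It was -0.70 without the first GSK343 library and -0.56 without the second. MCL1 had 156 and 203 FPKM with GSK343, against 128 and 131 FPKM with DMSO. The GSK343 libraries were higher and unequal. The log2 fold change was 0.46 (SE 0.12, limma, Benjamini-Hochberg adjusted p = 0.0149), and it was not called without the first Pfeiffer DMSO library (adjusted p = 0.0814, limma), without the second (adjusted p = 0.0590, limma) or with the replicate number as a block (adjusted p = 0.0686, limma). Without the first GSK343 library MCL1 had a log2 fold change of 0.65, and without the second 0.27. As a share of the pro-survival sum, BCL2A1 held 42.4% with GSK343 and 60.9% with DMSO, and MCL1 held 34.1% with GSK343 and 23.2% with DMSO. The sums overlapped between the groups, at 479.9 to 569.9 FPKM with GSK343 and 538 to 581 FPKM with DMSO.

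BCL2L11 had 99.6 and 131 FPKM with GSK343, against 77.2 and 82.0 FPKM with DMSO. The groups did not overlap. Its log2 fold change was 0.52 (SE 0.11, limma, Benjamini-Hochberg adjusted p = 0.00634), and it just missed the threshold without the first Pfeiffer DMSO library (adjusted p = 0.0522, limma). The BCL2L11 fold change was 0.71 without the first GSK343 library and 0.32 without the second. BMF had 25.9 and 8.44 FPKM with GSK343, against 3.03 and 3.94 FPKM with DMSO. Both GSK343 libraries were higher than DMSO, and they differed from each other about as widely. Its log2 fold change was 1.84 (SE 0.35, limma, Benjamini-Hochberg adjusted p = 0.00304), the largest among the members. Without the first GSK343 library it was 1.08, and without the second it was 2.59. BBC3 had 2.45 and 3.66 FPKM with GSK343, against 2.16 and 1.94 FPKM with DMSO. The second GSK343 library stood out and the first was close to DMSO. The log2 fold change of 0.40 (SE 0.13, limma, Benjamini-Hochberg adjusted p = 0.0390) was lost in 13 of 20 alternative settings. Without the second GSK343 library BBC3 was at 0.18, and without the first it was at 0.61.

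BCL2L1 had 69.0 and 127 FPKM with GSK343, against 65.5 and 65.1 FPKM with DMSO. Only the second GSK343 library stood clear of DMSO. The log2 fold change of 0.52 was not called (SE 0.21, limma, Benjamini-Hochberg adjusted p = 0.0831), and its size hung on 1 library. Without the second GSK343 library BCL2L1 was at 0.08, and without the first it was at 0.95. With both libraries it was called after quantile normalization (0.67, limma, Benjamini-Hochberg adjusted p = 0.025) and after median scaling (0.68, limma, Benjamini-Hochberg adjusted p = 0.0192). PMAIP1 had 23.5 and 21.1 FPKM with GSK343, against 17.5 and 18.8 FPKM with DMSO. Its libraries did not overlap, yet its log2 fold change of 0.28 was not called (limma, Benjamini-Hochberg adjusted p = 0.1005). PMAIP1 was called in 3 of 20 alternative settings: after quantile normalization (0.39, limma, Benjamini-Hochberg adjusted p = 0.0156), after median scaling (0.44, limma, Benjamini-Hochberg adjusted p = 0.0102) and without the first KARPAS-422 DMSO library (0.28, limma, Benjamini-Hochberg adjusted p = 0.0367). Leaving out the first or the second GSK343 library gave 0.21 and 0.36 for PMAIP1, not called. BCL2 had 23.9 and 30.7 FPKM with GSK343, against 22.7 and 24.9 FPKM with DMSO, with overlap. It was called after median scaling (0.34, limma, Benjamini-Hochberg adjusted p = 0.0347). Without the first GSK343 library BCL2 was at 0.36, while without the second it was at 0.01. BAX averaged 78.3 ± 11.9 FPKM with GSK343 and 84.8 ± 4.29 FPKM with DMSO, and BAK1 averaged 11.6 ± 0.280 FPKM with GSK343 and 11.5 ± 0.674 FPKM with DMSO (SD, n = 2 each). The 2 effectors overlapped between the groups and were not called, also without either GSK343 library (BAX at -0.27 without the first and 0.03 without the second, BAK1 at -0.0025 and 0.04). The summed level of 4 epithelial and stromal markers was 56.0 and 76.2 FPKM with GSK343 and 138 to 139 FPKM with DMSO, nearly all of it EPCAM, a transcript at most 0.0884 FPKM on average in the other lines. The summed level of the 5 B cell markers was 1998 and 2484 FPKM with GSK343 and 2569 to 2627 FPKM with DMSO. That of the 4 germinal centre markers was 99.5 and 277.8 FPKM in the GSK343 libraries, far apart, and 120.1 to 123 FPKM with DMSO. The sum of the 3 plasma cell markers was 180.3 and 279.9 FPKM with GSK343 and 271 to 288 FPKM with DMSO, most of it XBP1, while PRDM1, the regulator of plasma cell fate, averaged 9.25 FPKM with GSK343 and 1.3 FPKM with DMSO. The part of these shifts in the results was not tested.

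**Figure D3:**
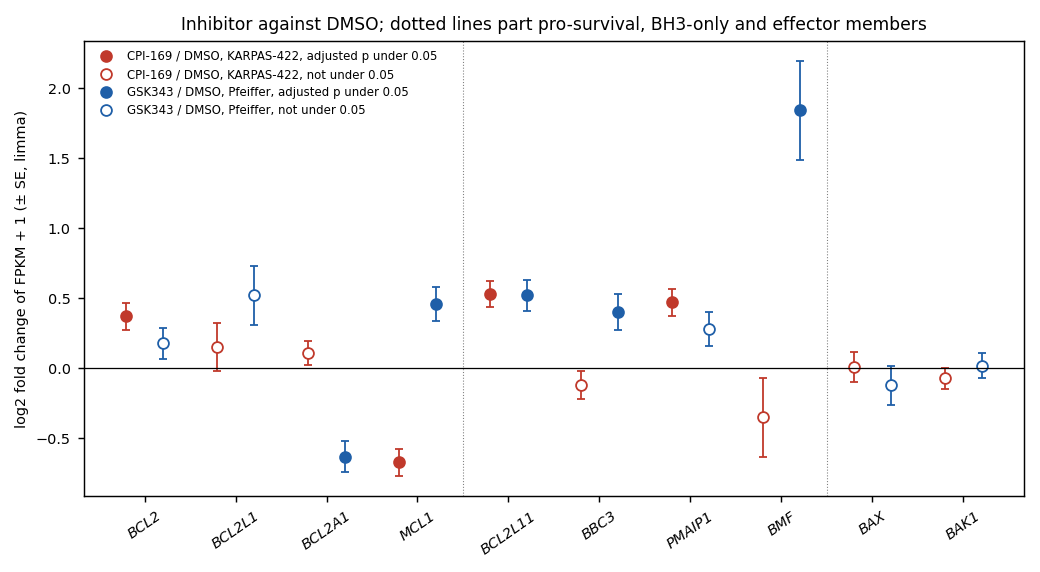
Log2 fold changes of FPKM + 1 (± SE, limma) of the 10 genes for CPI-169 against DMSO in KARPAS-422 and GSK343 against DMSO in Pfeiffer, with filled points for an adjusted p under 0.05. BCL2L11 lay at 0.53 and 0.52, while MCL1 lay at -0.67 with CPI-169 and at 0.46 with GSK343.

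The inhibitor effects were then compared directly, as the CPI-169 effect in KARPAS-422 minus the GSK343 effect in Pfeiffer, which share no control libraries. Of the 10 members 4 differed, beside 42.6% of all genes tested, which is near the share of the members. The difference was positive for 1 member beside 23.8% of all genes and negative for 3 beside 18.8%. MCL1 moved in opposite directions, and the difference of its log2 fold changes was -1.13 (SE 0.15, limma, Benjamini-Hochberg adjusted p = 2.44e-04). BMF differed by -2.19 (SE 0.45, limma, Benjamini-Hochberg adjusted p = 0.00305). Both of these held under all 20 alternative settings, and without the first or the second GSK343 library they were -1.32 and -0.94 for MCL1 and -1.43 and -2.94 for BMF. BCL2A1 differed by 0.74 (SE 0.14, limma, Benjamini-Hochberg adjusted p = 0.00177), but its level in KARPAS-422 was below 1 FPKM, where the log2(FPKM + 1) scale understates a change. After quantile normalization the BCL2A1 difference was 0.25 and not called (limma, Benjamini-Hochberg adjusted p = 0.114). It was 0.82 without the first GSK343 library and 0.67 without the second. BBC3 differed by -0.51 (SE 0.16, limma, Benjamini-Hochberg adjusted p = 0.0281), and the call was lost in 6 of 20 alternative settings. Without the first GSK343 library it was -0.73, and without the second -0.29. For BCL2L11 the difference was 0.01 (SE 0.14, limma, Benjamini-Hochberg adjusted p = 0.955), with -0.18 without the first GSK343 library and 0.21 without the second, not called either time. For BCL2L1 the difference was -0.36 and not called, and the value hung on 1 library. It was -0.80 without the first GSK343 library and turned to 0.07 without the second. The BCL2 difference, 0.18 and not called, was 0.36 without the second GSK343 library and 0.01 without the first.

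Between the lines with DMSO most genes differed, and the members were no exception. RL against KARPAS-422 gave 8 of 10 members called beside 66.8% of all genes, with 6 higher beside 33.6% and 2 lower beside 33.2%. RL against Pfeiffer gave 9 of 10 beside 74.3%, with 4 higher beside 35.6% and 5 lower beside 38.7%. KARPAS-422 against Pfeiffer gave 8 of 10 beside 83%, with 5 higher beside 39.8% and 3 lower beside 43.2%. These comparisons share libraries with each other, and those of KARPAS-422 and Pfeiffer share their DMSO libraries with the inhibitor comparisons. The lines also carry separate runs of library numbers, and these cannot be told apart from the line. In these bulk libraries, fewer expressing cells and less RNA per cell cannot be told apart either. BCL2 was higher in RL (182 and 195 FPKM) than in KARPAS-422 (86.5 to 91.8 FPKM) and Pfeiffer (22.7 and 24.9 FPKM). Its log2 fold change was 1.07 for RL against KARPAS-422 (SE 0.10), 2.94 for RL against Pfeiffer (SE 0.11) and 1.86 for KARPAS-422 against Pfeiffer (SE 0.10). No library of one line reached the range of another. BCL2A1 was at 5.78 and 5.22 FPKM in RL, 0.629 to 0.767 FPKM in KARPAS-422 and 365 and 317 FPKM in Pfeiffer. Its log2 fold change was -5.71 for RL against Pfeiffer (SE 0.11) and -7.65 for KARPAS-422 against Pfeiffer (SE 0.098), the largest differences among the members.

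MCL1 was lowest in RL, at 96.1 and 96.5 FPKM, against 184 to 201 FPKM in KARPAS-422 and 128 and 131 FPKM in Pfeiffer. It was lower in RL than in KARPAS-422 by a log2 fold change of -1.0 (SE 0.11), and the -0.42 against Pfeiffer (SE 0.12, limma, Benjamini-Hochberg adjusted p = 0.00723) became -0.21 after quantile normalization and was then not called (limma, Benjamini-Hochberg adjusted p = 0.164). BCL2L1 was lower in RL and in KARPAS-422 than in Pfeiffer, with log2 fold changes of -1.42 (SE 0.21) and -1.28 (SE 0.19). Between RL and KARPAS-422, BCL2L1 had 23.5 and 24.0 FPKM in RL, against 25.4 to 27.6 FPKM in KARPAS-422, without overlap. The log2 fold change of -0.15 was not called (limma, Benjamini-Hochberg adjusted p = 0.525). It was called in 4 of 21 alternative settings, with RL and KARPAS-422 fitted alone (limma, Benjamini-Hochberg adjusted p = 0.0452), without the first or the second GSK343 library (limma, Benjamini-Hochberg adjusted p = 0.0376 both times) and without both (limma, Benjamini-Hochberg adjusted p = 0.0368). The leading pro-survival gene thus differed from line to line, BCL2 in RL, MCL1 in KARPAS-422 and BCL2A1 in Pfeiffer. BCL2L1 was also higher in Pfeiffer than in the other lines, but within Pfeiffer it lay below MCL1.

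Of the BH3-only genes, 3 were highest in RL. BMF had 42.3 and 44.0 FPKM in RL, against 3.31 to 3.49 FPKM in KARPAS-422 and 3.03 and 3.94 FPKM in Pfeiffer, a log2 fold change of 3.33 (SE 0.32) and 3.31 (SE 0.35). Both RL libraries also lay above both GSK343 libraries, in which BMF had risen. BBC3 had 9.62 and 9.77 FPKM in RL, against 3.74 to 3.87 FPKM in KARPAS-422 and 2.16 and 1.94 FPKM in Pfeiffer. PMAIP1 had 66.6 and 66.8 FPKM in RL, against 36.6 to 48.3 FPKM in KARPAS-422 and 17.5 and 18.8 FPKM in Pfeiffer. The lines did not overlap for either gene, and with CPI-169 KARPAS-422 came to 56.3 to 62.5 FPKM of PMAIP1, still below RL. BCL2L11 was the exception, with 38.2 and 36.7 FPKM in RL, 16.2 to 17.5 FPKM in KARPAS-422 and 77.2 and 82.0 FPKM in Pfeiffer. The summed BH3-only level averaged 157 FPKM in RL, against 67.0 FPKM in KARPAS-422 with DMSO and 103 FPKM in Pfeiffer with DMSO. With an inhibitor that sum averaged 90.4 FPKM in KARPAS-422 and 158 FPKM in Pfeiffer. These sums were not scaled to the FPKM summed over all genes either, which was highest in the Pfeiffer libraries.

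The effectors behaved unlike each other across lines. BAX had 45.0 and 42.1 FPKM in RL, against 103 to 121 FPKM in KARPAS-422 and 81.8 and 87.8 FPKM in Pfeiffer. RL was clear of both other lines, at log2 fold changes of -1.38 (SE 0.12) and -0.95 (SE 0.14). KARPAS-422 against Pfeiffer gave 0.43 for BAX (SE 0.12, limma, Benjamini-Hochberg adjusted p = 0.00742), which was lost after median scaling (0.20, limma, Benjamini-Hochberg adjusted p = 0.121) and without the first Pfeiffer DMSO library (0.38, limma, Benjamini-Hochberg adjusted p = 0.0576). BAK1 lay between 10.8 and 12.9 FPKM in all 12 libraries, and no comparison called it. A processed pseudogene, BAK1P1, was listed at 5.25 to 8.11 FPKM, so reads of BAK1 could have been split between the copies. The BCL2 locus overlaps RP11-28F1.2, listed at 0.186 to 5.31 FPKM, and whether strands were counted apart is not given in the sources used here. The values are per gene, so that the splice forms of BCL2L1, MCL1 and BCL2L11, some of which act in opposite ways, were not separated.

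**Figure D4:**
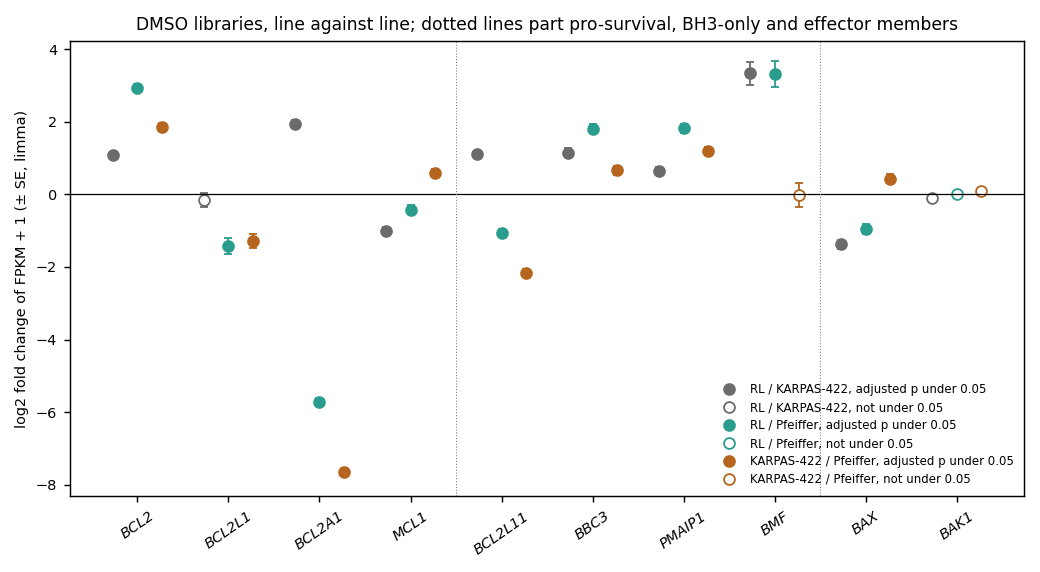
Log2 fold changes of FPKM + 1 (± SE, limma) of the 10 genes between lines with DMSO, for RL against KARPAS-422, RL against Pfeiffer and KARPAS-422 against Pfeiffer. BCL2A1 spans the widest range, down to -7.65, BMF lies at 3.33 and 3.31 for RL, and BAK1 lies near 0, where its sign turns with the scaling for KARPAS-422 against Pfeiffer.

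Genes that act with the family were counted in 6 lists, whose counts stand beside 54.2% of all genes called with CPI-169 and 29.5% with GSK343. Of 13 further family members, 10 were tested: 1 rose and 4 fell with CPI-169, and with GSK343 limma called 0 higher (1 at an unadjusted p under 0.05) and 3 lower. After median scaling the GSK343 counts were 3 and 3. BCL2L12, a divergent family member, fell with both, to 24.0 ± 3.43 FPKM with CPI-169 against 54.4 ± 3.60 FPKM with DMSO (log2 fold change -1.16) and to 16.6 ± 4.95 FPKM with GSK343 against 32.3 ± 1.90 FPKM with DMSO (log2 fold change -0.95). With CPI-169, BCL2L13, a mitochondrial family member, fell by 0.39 on the log2 scale and BNIP3L, a mitophagy receptor, rose by 0.44. With GSK343 the BH3-only genes BID, cleaved by caspase-8, and BAD, a sensor of survival signalling, fell by 0.66 and 0.78. BID also fell with CPI-169, by 0.34. BIK, another BH3-only gene and one chosen here after its values were seen, had 25.3 and 28.2 FPKM in RL. It had 0.0877 to 0.316 FPKM in KARPAS-422 and 2.64 and 2.81 FPKM in Pfeiffer with DMSO. The log2 fold changes were 4.56 (SE 0.26) and 2.90 (SE 0.29). HRK, BID and BAD, also BH3-only genes, did not follow BIK. Against Pfeiffer all of them were called lower in RL, at -0.48, -1.8 and -0.55. Against KARPAS-422, HRK was called lower (-1.47), BID was called higher (0.34) and BAD was not called (0.26).

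Downstream of the mitochondrion, 2 of 14 genes of the apoptosome, the caspases and mitochondrial release rose and 5 fell with CPI-169. APAF1, the scaffold of the apoptosome, fell by 0.52 on the log2 scale, and HTRA2, a released protease that binds inhibitors of apoptosis, rose by 0.55. With GSK343 limma called 0 of the 14 higher, also at an unadjusted p under 0.05, and 4 lower, among them CASP2 (-0.49) and the outer membrane channels VDAC1 (-0.32) and VDAC3 (-0.58). After median scaling 1 was higher and 1 lower. Of 6 inhibitors of apoptosis, 1 rose and 4 fell with CPI-169. BIRC5, which encodes survivin, a protein also needed for cell division, fell to 25.5 ± 1.38 FPKM with CPI-169 against 52.8 ± 4.04 FPKM with DMSO, a log2 fold change of -1.02. It was also the 1 gene of that list called with GSK343, where limma called 0 higher (1 at an unadjusted p under 0.05). There it was at 9.33 and 6.73 FPKM with GSK343, against 37.6 and 32.3 FPKM with DMSO, a log2 fold change of -2.01. BIRC6, a very large inhibitor of apoptosis, fell by 0.76 with CPI-169, and BIRC3, an NF-κB target, rose by 0.79 at a level of 1.39 ± 0.163 FPKM against 0.390 ± 0.123 FPKM with DMSO.

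In the death receptor arm, 3 of 10 genes rose and 4 fell with CPI-169, and 5 rose and 1 fell with GSK343, beside medians of 0.06 and 0.34 over the list and 0.01 and -0.03 over all genes. RIPK1, a kinase of the receptor complexes, rose with both (0.46 with CPI-169 and 0.60 with GSK343). TRADD, the adaptor of the TNF receptor, also rose with both, by 0.85 with CPI-169 and by 0.41 with GSK343. FADD, the adaptor of FAS, fell by 0.64 with CPI-169. FAS rose with both, at log2 fold changes of 0.59 with CPI-169 and 0.91 with GSK343. CFLAR, which blocks caspase-8 at the receptor, rose by 0.78 with GSK343, and its 0.02 with CPI-169 was not called. Of 11 tested factors that set the stability or place of family proteins, 3 rose and 4 fell with CPI-169, and 1 rose and 2 fell with GSK343. DYNLL1, the dynein light chain that holds BIM at the cytoskeleton, fell with both, by 0.92 with CPI-169 and by 0.64 with GSK343. DYNLL2, the light chain that holds BMF and one named here after its values were seen, rose by 0.31 with CPI-169, and its log2 fold change of -0.03 with GSK343 was not called. UBQLN1, a ubiquitin-binding shuttle, also fell with both, by 0.42 with CPI-169 and by 0.33 with GSK343. USP9X, a deubiquitinase that stabilises MCL1, fell by 0.55 with CPI-169, and its log2 fold change of 0.1 with GSK343 was not called. FBXW7, a ubiquitin ligase subunit that marks MCL1 for degradation, rose with both, by 0.56 with CPI-169 and by 0.68 with GSK343.

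Of 20 transcription factors known to act on family genes, 9 rose and 6 fell with CPI-169, and 8 rose and 3 fell with GSK343. Without the second GSK343 library the GSK343 counts were 6 and 5. FOXO4 rose with CPI-169 (log2 fold change 1.03, SE 0.095), and the other FOXO genes of the list, FOXO1 and FOXO3, were looked at after these values were seen. FOXO1 had 28.0, 31.3 and 30.1 FPKM with CPI-169, against 20.9, 18.2 and 18.3 FPKM with DMSO. In Pfeiffer it had 7.95 and 10.9 FPKM with GSK343, against 4.13 and 4.57 FPKM with DMSO. Its log2 fold changes were 0.61 with CPI-169 and 0.95 with GSK343. FOXO3 had 0.44 with CPI-169 and 0.62 with GSK343, and FOXO4 0.60 with GSK343, all called. FOXO factors are known activators of BCL2L11, and the part of these shifts in its rise was not tested. DDIT3, the stress factor CHOP, fell with both, by 1.81 with CPI-169 and by 0.81 with GSK343. E2F1, a cell-cycle factor, also fell with both, by 0.56 with CPI-169 and by 1.79 with GSK343. STAT5A rose with both, by 0.21 with CPI-169 and by 1.25 with GSK343. TP73, a factor that can activate BBC3, also rose with both, by 0.47 with CPI-169 and by 0.75 with GSK343. Its levels were low, at means of 0.934 FPKM with CPI-169 and 0.398 FPKM with DMSO in KARPAS-422. In Pfeiffer they were 1.54 FPKM with GSK343 and 0.509 FPKM with DMSO.

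**Figure D5:**
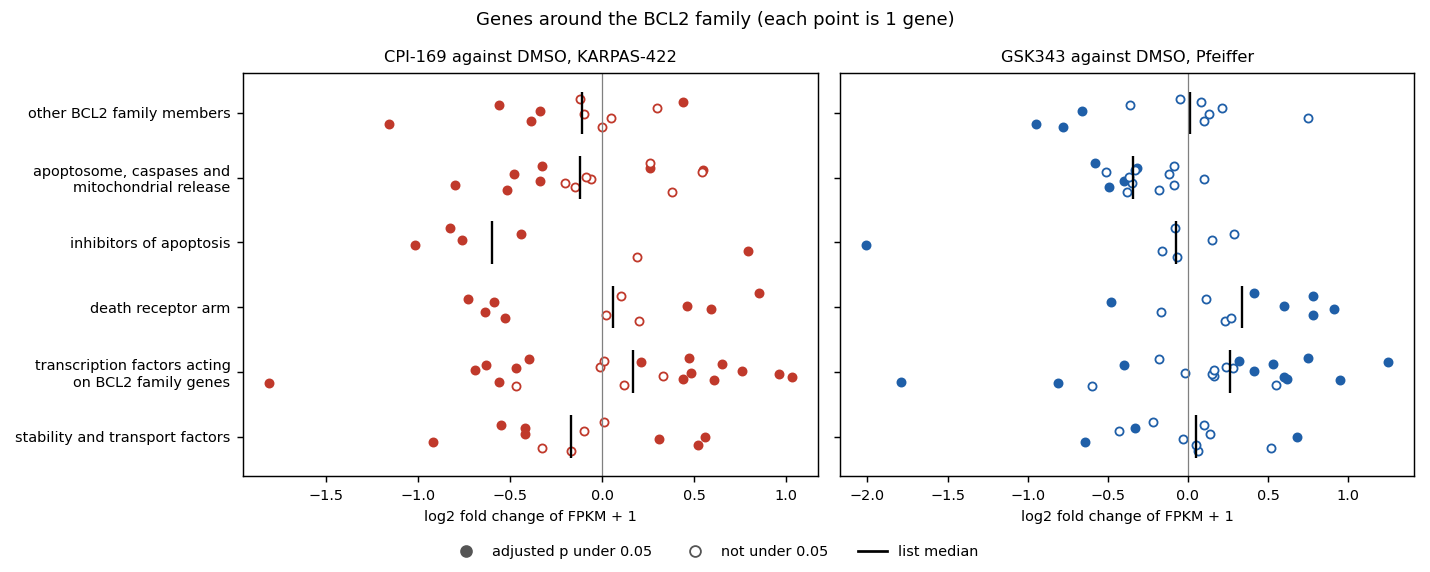
Log2 fold changes of FPKM + 1 of the genes of the 6 lists, with CPI-169 against DMSO in KARPAS-422 in the left panel and GSK343 against DMSO in Pfeiffer in the right panel. Each point is 1 gene, filled for an adjusted p under 0.05, and a bar marks each list's median, which is -0.60 with CPI-169 and -0.08 with GSK343 for the inhibitors of apoptosis, where the sign of the GSK343 median turns with the scaling.

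Genes whose levels followed a member most closely across the 12 libraries were named by Pearson's r on the log2(FPKM + 1) scale. The libraries fall into 3 lines, so that r mainly reflects the order of the lines, and it is given as a description. BCL2 was followed most closely by RP11-421F16.3 (0.996) and PTPN18 (0.996), BCL2L1 by GRIP1 (0.996) and HSPG2 (0.993), and BCL2L11 by GNA12 (0.996) and BIN1 (0.993). PMAIP1 was followed by CAB39L (0.988) and by SERPINA9 (0.986), the germinal centre marker that was near 0 in Pfeiffer. BMF was followed by TNFRSF4 (0.988) and SPSB1 (0.971), and BBC3 by RHEBP2 (0.980). The closest genes for BAX were AP003774.1 (0.985) and EMC10 (0.984). BCL2A1 was followed by the pseudogenes PGAM1P2 and RPL5P9 (0.999 and 0.998). MCL1 had the loosest followers, DFNA5 (0.962) and GOSR1 (0.961). BAK1 varied too little across groups for such a measure.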

How the data were processed

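RNA was sequenced in 12 libraries of 3 cell lines. The submitters' processing notes name TopHat 1.4.1, Cufflinks and hg19, and the authors deposited FPKM values per Ensembl gene. FPKM are not counts, so no counting interval is given. The annotation, kit and strand counting were not given in the sources used here. Groups and replicate numbers came from the labels, and columns were matched by title. Nothing in the labels says that replicates were separate cultures, so the p-values cover a spread that may be technical only.

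Missing values left out 77 genes. The 18731 genes that reached 1 FPKM in 2 or more of 12 libraries were transformed to log2(FPKM + 1), which understates changes of low genes. All 5 groups entered 1 limma fit (3.58.1, under R 4.3.3) with an intensity trend, which had 7 residual degrees of freedom and 3.45 prior ones. P-values were adjusted by Benjamini-Hochberg over all genes, with a threshold of 0.05. The members, the 6 lists and the tests were chosen with earlier results of these data known. Named were the 10 members, EZH2, up to 3 called genes of each list and inhibitor comparison by smallest adjusted p, and for members whose group means span at least 1 log2 unit the 2 genes with the highest r over the libraries. BIK, DYNLL2, FOXO1 and FOXO3 were added after their values were seen. A further list and a few genes falling under this rule are not reported here. On simulated data for 18731 genes the fit found 60%, 90% and 100% of those with true 1.5, 2 and 4-fold changes between KARPAS-422 groups, and 45%, 82% and 90% between Pfeiffer groups. Only 100, 50 and 50 genes were changed there at these folds, and each gene had 1 spread in all groups. The data had far more called genes and a wider GSK343 pair, so these shares are not detection rates for the data. Alternatives changed the pseudocount, the filter, the scaling, the samples fitted, the variance model and the replicate block, and left out each library. Same-numbered libraries of KARPAS-422 deviated together at r = -0.152, -0.252 and 0.156. Differently numbered ones ranged from -0.251 to 0.334, so libraries of the same number were no more alike. Deviations from a group mean constrain each other, so these values cannot settle whether the numbers pair the samples. With 2 libraries a group, Pfeiffer gives 1 value by construction, 0.14, which does not settle whether its numbers pair the samples, and the labels do not say. Promoters came from RefSeq (GRCh38.p14), apart from the files' hg19 loci.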

Additional observations from a re-analysis of the deposited data

Results flagged for a closer look

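For 4 members the CPI-169 effect in KARPAS-422 and the GSK343 effect in Pfeiffer differed by the test of the difference itself (limma, Benjamini-Hochberg adjusted p under 0.05), as log2 CPI-169 effect minus GSK343 effect. MCL1 differed by -1.13, falling with CPI-169 and rising with GSK343. BMF differed by -2.19, with a call for its rise with GSK343 only. BCL2A1 differed by 0.74, with a fall in Pfeiffer and a level below 1 FPKM in KARPAS-422. BBC3 differed by -0.51, with a log2 fold change of -0.12 with CPI-169 and 0.40 with GSK343. Over all genes 42.6% differed in the same test, and compound and line cannot be told apart. No group held enough libraries to test for a single outlying library.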

How the results depend on the processing

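Of 1240 values recomputed under the alternatives, 1163 kept their direction and their side of the threshold. The GSK343 comparison moved most. Its count of 5535 genes was 0 with only Pfeiffer fitted, 3541 with the replicate block, and 3003 to 8681 with 1 library left out, and the members called, 5, were 8 after median scaling, 0 with only Pfeiffer fitted, 3 with the replicate block and 2 to 7 with 1 library left out. The lowest counts came without the first and the second Pfeiffer DMSO library (3003 and 3537) and the highest without the first GSK343 library. Without a GSK343 library the spread of that pair no longer enters the fit, so the higher counts there do not strengthen the results. The block lost the calls of MCL1 and BBC3 with GSK343 and of the BBC3 difference (-0.51, adjusted p = 0.0925, limma). With 1 library left out, the counts were 8941 to 11609 for CPI-169 (members 4 to 6), 6050 to 10348 for the difference of effects (members 3 to 5), 10827 to 13513 for RL against KARPAS-422 (members 8 to 9), 12459 to 14895 for RL against Pfeiffer (members 9) and 14451 to 16229 for KARPAS-422 against Pfeiffer (members 7 to 8). Leaving out both GSK343 libraries, and the list counts under other scalings, were chosen after seeing the data.

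The 23 changes of sign were all in values not called as reported. After quantile normalization these were BCL2A1 with CPI-169 (-0.11), BAX with GSK343 (0.07), the BAX difference (-0.05), and BAK1 (-0.0018) and BMF (0.19) for KARPAS-422 against Pfeiffer. After median scaling they were BAK1 with CPI-169 (0.04), BAX with GSK343 (0.04), the BCL2L11 difference (-0.04) and BAK1 for KARPAS-422 against Pfeiffer (-0.11). With 1 library left out, the range was -0.07 to 0.10 for BAX with CPI-169, -0.04 to 0.08 for BAK1 and -0.27 to 0.03 for BAX with GSK343, -0.02 to 0.28 for the BAX, -0.18 to 0.21 for the BCL2L11 and -0.80 to 0.07 for the BCL2L1 difference, -0.08 to 0.07 for BAK1 in RL against Pfeiffer and -0.17 to 0.12 for BMF in KARPAS-422 against Pfeiffer. The cause was not tested. Median scaling multiplies a whole library and so cannot change the order of members within it, and summing over rows of a symbol was not run, since each had 1 row. Unknown depth and 2 libraries in 3 of the groups limit the precision.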
